A study of Mus musculus with 10 samples.

Results

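Described here are 9 genes almost silent in dermal lymphatic endothelial cells (LECs) of control mice and at higher levels in LECs of mice carrying an activated PI3K, by the lymphatic subtype that held them. The 9 genes, of 46517 in the count tables, are *Lrrc26*, *Kcnn4*, *Ccdc184*, *Klk8*, *Stx11*, *Myo18b*, *Gprc5a*, *Ankrd33b* and *Serpinb1a*. They were chosen by their read levels and positive-cell shares, higher in LECs of mutant than of control mice, so that difference is given as a description without a test. Tests compare valve, collecting and *Ptx3*-high with other LECs within mutant mice, and blood vascular endothelial cells (BECs) between genotypes. A high level over all mutant LECs, which these classes make up, was part of the choice, so the class comparisons are not fully independent of it.

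Ear skin was the tissue, and its endothelial cells were sorted singly into 384-well plates with antibodies to Podoplanin and CD31 and sequenced by the full-length Smart-Seq2 method. The 5 mutant mice were Cre-positive Pik3caH1047R;Cdh5-CreERT2 animals, painted on the ears with 4-OHT at 3 wk of age and analysed at 5 wk. Control 1 was an untreated C57BL/6J mouse, and control 2 a 4-OHT-treated, Cre-negative animal of the mutant strain, both also 5 wk old. Cdh5-CreERT2 is driven by a promoter active in all endothelium, so both LECs and BECs could recombine, and the transgene itself has no entry in the tables. Of 3456 wells, 3248 held a usable cell, with a median of 300447.5 reads per cell in mutants and 286372 in controls. These gave 1273 mutant and 350 control LECs and 1171 mutant and 301 control BECs. The plates of mutants 1–4 belonged to an earlier number series than those of mutant 5 and both controls, so genotype and plate series cannot be told apart except through mutant 5, whose values are therefore named where it stands apart.

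PI3K converts growth factor signals, in LECs mainly those of VEGF-C through VEGFR3, into a lipid signal that activates AKT, and the H1047R change in its catalytic subunit keeps that activity high. Activating mutations of this subunit in endothelium are a known cause of lymphatic malformations. Capillary LECs take up fluid and are marked by *Lyve1*, collecting vessels carry it onward, and valve LECs, which hold *Cldn11* here, keep the flow in one direction. *Ptx3*, a secreted pattern recognition protein, is used as a marker of a set of capillary LECs.

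The genes fall into several functional groups. *Lrrc26* encodes an auxiliary subunit of the BK potassium channel, and *Kcnn4* the calcium-activated potassium channel KCa3.1, which opens through bound calmodulin. *Klk8* is a secreted serine protease of the kallikrein family, found in epidermis and brain, and *Serpinb1a* an intracellular inhibitor of neutrophil serine proteases. *Stx11* is a syntaxin of membrane fusion needed for granule release in cytotoxic lymphocytes, *Myo18b* an unconventional myosin of striated muscle, and *Gprc5a* an orphan receptor induced by retinoic acid. *Ccdc184* and *Ankrd33b* encode a coiled-coil and an ankyrin repeat protein.

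The genes lie apart in the genome and are not a single gene cluster. In GRCm38 with GENCODE M21 coordinates, *Lrrc26* spans chr2:25289915-25291180 and *Ccdc184* chr15:98167158-98170134, both on the plus strand. *Klk8* and *Kcnn4* share a chromosome, at chr7:43797577-43803826 and chr7:24370263-24386690, also on the plus strand. *Ankrd33b* lies at chr15:31291478-31367726 on the minus strand. *Stx11*, *Gprc5a*, *Myo18b* and *Serpinb1a* are on chromosomes 10, 6, 5 and 13. The exons of *Klk8* share 24.8% of their bases with *2310002F09Rik* on the opposite strand, and the libraries keep no strand, so reads of that part cannot be assigned to either gene. *Serpinb1a* shares 2.81% of its 50-base words with its copies *Serpinb1b* and *Serpinb1c*.

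The start regions of 4 of the genes are shown because *Lrrc26*, *Ccdc184* and *Klk8* were highest in the same LEC class, while *Kcnn4*, higher in mutant LECs by choice, lay below both controls in the BECs of every mutant without passing the test there. Each window runs from 250 bases before to 50 after the RefSeq start site in GRCm38.p6. Capitals mark matches, on either strand, to the letters GGAATG (TEAD), CACGTG (E-box) and CACACCC (KLF). The windows lie on the plus strand at chr2:25289661-25289960 (*Lrrc26*), chr7:24370013-24370312 (*Kcnn4*), chr15:98167556-98167855 (*Ccdc184*) and chr7:43797327-43797626 (*Klk8*). That of *Ccdc184* lies wholly inside the GENCODE span given above, since its RefSeq start is downstream of its GENCODE start.
Lrrc26: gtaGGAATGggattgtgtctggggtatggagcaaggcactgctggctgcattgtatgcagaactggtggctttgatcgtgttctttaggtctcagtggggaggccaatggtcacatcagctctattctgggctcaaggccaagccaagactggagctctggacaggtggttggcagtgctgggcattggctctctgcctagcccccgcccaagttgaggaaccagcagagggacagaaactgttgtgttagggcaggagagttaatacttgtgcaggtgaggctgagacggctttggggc
Kcnn4: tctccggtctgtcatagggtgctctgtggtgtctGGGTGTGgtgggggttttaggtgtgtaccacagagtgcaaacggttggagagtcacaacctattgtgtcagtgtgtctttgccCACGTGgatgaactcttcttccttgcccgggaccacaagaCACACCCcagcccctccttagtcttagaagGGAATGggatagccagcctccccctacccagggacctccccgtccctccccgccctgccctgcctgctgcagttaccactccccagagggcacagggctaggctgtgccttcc
Ccdc184: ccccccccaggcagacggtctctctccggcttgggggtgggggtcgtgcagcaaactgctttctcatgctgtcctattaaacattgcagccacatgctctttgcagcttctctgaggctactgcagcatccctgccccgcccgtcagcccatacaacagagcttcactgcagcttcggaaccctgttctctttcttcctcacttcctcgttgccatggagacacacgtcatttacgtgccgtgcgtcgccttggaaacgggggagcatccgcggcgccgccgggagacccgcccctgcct
Klk8: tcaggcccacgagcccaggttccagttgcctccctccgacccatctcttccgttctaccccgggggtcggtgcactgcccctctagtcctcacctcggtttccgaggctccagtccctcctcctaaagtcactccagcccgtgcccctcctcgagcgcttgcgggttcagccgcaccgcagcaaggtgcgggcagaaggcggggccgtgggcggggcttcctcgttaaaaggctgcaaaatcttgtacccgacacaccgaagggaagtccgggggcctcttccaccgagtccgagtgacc

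RefSeq windows were available for 6 of the 9 genes, and those of *Myo18b*, *Gprc5a* and *Serpinb1a* were not used here. The windows of *Lrrc26* and *Kcnn4* both held GGAATG, which 14.6% of 32544 promoter windows hold, and that of *Kcnn4* also held CACGTG (7.17% of windows) and CACACCC (7.98%). None of the 6 windows held the other letters searched on both strands, namely TGTTTAC of FOXO (3.66% of windows), TGAGTCA of AP-1 (5.19%), TGACGTCA of CRE (1.80%) and ACCGGAAG of ETS (2.32%). The windows of *Ccdc184*, *Klk8*, *Stx11* and *Ankrd33b* held none of the 7 motifs. Their GC content was 61.0, 65.3, 71.0 and 66.0%, against a median of 53.0% over all windows. None of the motifs searched was common to all 6 windows.

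All LECs of a mouse were first summed, and levels are given as CPM, the reads of a gene scaled to a common total of summed reads. *Lrrc26* had 0 reads in the LECs of both controls and 45.1, 36.8, 41.6, 41.8 and 53.0 CPM in mutants 1–5. The mutants lay close together, and against a floor of 3 reads over both controls their mean was at least 1637-fold higher. *Myo18b* was likewise at 0 reads in both controls and at 2.22, 7.44, 5.06, 10.8 and 18 CPM in the mutants, at least 326-fold higher. *Ccdc184* was at 0 and 0.0514 CPM in the controls, the latter from 3 reads, and at 66.7, 73.6, 65.4, 85.2 and 108 CPM in the mutants. Thus these 3 genes were practically absent from control LECs, and no mutant overlapped a control.

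*Klk8* reached the highest mean level of the 9 genes, 142 ± 111 CPM (SD, n = 5 mice), from 59.3, 85.9, 118, 111 and 336 CPM against 0.812 and 0.137 CPM in the controls. Mutant 5 was far above the other mutants, which nevertheless all exceeded both controls. Per kilobase of exon *Klk8* was also the highest, at 107 CPM, followed by *Lrrc26* at 36.7 and *Ccdc184* at 34.3, which differed from each other by less than their spread. *2310002F09Rik*, which shares exon bases with *Klk8*, averaged 17.0 CPM in mutant LECs (7.74–43.2) and 0.00923 CPM in control LECs.

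*Kcnn4* was at 4.25 and 0.206 CPM in control and at 22, 17.6, 22, 17.7 and 34.8 CPM in mutant LECs. Of the 242 control reads, 200 came from 1 collecting LEC of control 1. *Stx11* was at 0.0185 and 0.925 CPM in controls, where 54 of 55 reads came from 1 collecting LEC of control 2, and at 15.1, 25.9, 17.9, 24.9 and 26.2 CPM in mutants. For both genes the mutant and control mice did not overlap. *Gprc5a* (4.07–27.6 CPM in mutants), *Ankrd33b* (7.33–34.1 CPM) and *Serpinb1a* (2.12–7.72 CPM) lay at or below 0.388 CPM in both controls, and mutant 5 had 27.6, 34.1 and 6.63 CPM of them. The mutant mean exceeded the control mean 299-fold for *Klk8*, 87.9-fold for *Ankrd33b*, 77.8-fold for *Gprc5a*, 46.6-fold for *Stx11*, 15.3-fold for *Serpinb1a* and 10.2-fold for *Kcnn4*. All 9 genes were without overlap, which the choice of the genes fixes. Among all genes, every mutant lay above both controls for 15.0% of the 15209 genes at 1 CPM in 2 or more mice.

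**Figure D1:**
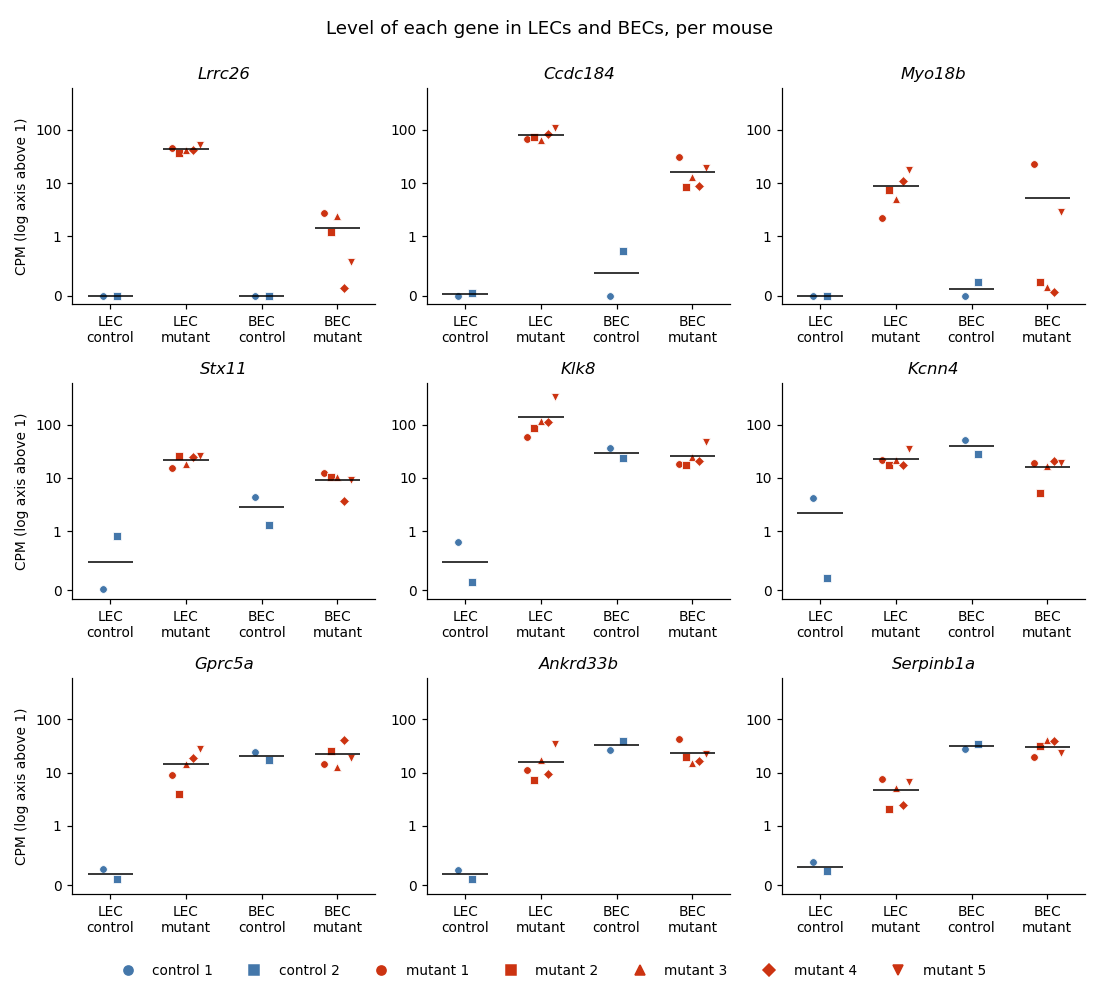
CPM of each gene (axis linear from 0 to 1 and log above 1) in the summed LECs and BECs, with 1 point per mouse (control mice blue, mutants red, 1 symbol for each mouse of a group) and a line at the group mean. In LECs all 5 mutants lie above both controls for all 9 genes, whereas in BECs they do so for 2 genes.

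The high levels rested on a minority of mutant LECs. To compare shares at equal depth each cell was thinned to 50000 reads, and a cell with 1 or more reads of the gene was called positive. *Ccdc184* was positive in 24.3, 19.6, 22.4, 27.6 and 38.9% of the LECs of mutants 1–5 and in 0 and 0.578% of those of the controls. *Lrrc26* was positive in 18.8, 10.9, 18.2, 21 and 26.8% of mutant LECs and in 0 of 350 control LECs, which allows up to 0.857% of cells with a read by counting error alone, with cells of both mice pooled. Even for these abundant genes most mutant LECs were thus negative at this depth.

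*Klk8* was positive in 16, 16.3, 27.3, 23.2 and 75.6% of mutant LECs. Mutant 5 stood apart, and before thinning 361 of its 365 LECs held at least 1 read of *Klk8*. With a stricter limit of 100 CPM in the cell the share was 33.2% in mutant 5 and 6.08, 9.24, 12.4 and 13.3% in mutants 1–4. The BECs of mutant 5 were also more often positive for *Klk8* after thinning, in 43.3% against 6.36–19.7% in the other mutants, at 46.4 CPM. At 100 CPM in the cell they were not, with 4.59% against 2.72–6.01%. In mutant 5, 5 cells held 64.5% of the BEC reads of *Klk8*.

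*Stx11* was positive in 11.8 ± 3.96% of mutant LECs (SD, n = 5), *Ankrd33b* in 10.6 ± 6.52%, *Kcnn4* in 9.79 ± 3.05% and *Gprc5a* in 7.04 ± 4.46%. *Myo18b* followed at 6.43 ± 2.20% and *Serpinb1a* at 4.18 ± 2.05%, and neighbours in this order overlapped. Mutant 5 was positive for *Ankrd33b* in 22.2% of LECs, against 6.52–8.29% in the other mutants. Control LECs were positive for these 6 genes in 0–3.95%. At 100 CPM in the cell, 0 of 350 control LECs were positive for any of the 9 genes except 1 cell for *Stx11* and 1 for *Kcnn4*, the collecting LECs named above. *Serpinb1a* reached that level in 18 of 1273 mutant LECs, and a single cell held 18.2–47.3% of its reads in each mutant mouse, so its level depended on few cells.

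LECs were then divided by limits on marker genes into valve (*Cldn11* at 300 CPM or more), collecting (*Mmrn2* above *Lyve1*), *Ptx3*-high (*Ptx3* at 100 CPM or more) and other LECs, in this order. Mutants held 188 valve, 105 collecting, 437 *Ptx3*-high and 543 other LECs, and controls 42, 51, 48 and 209. The *Ptx3*-high class made up 33.5 ± 6.17% of mutant LECs and 5.65 and 22% of control LECs. The 6 LEC markers summed to between 6.46e+03 and 1.00e+04 CPM in LECs and to 125–408 CPM in BECs. *Prox1*, *Flt4* and *Mmrn1* among them set the division of LECs from BECs, so these sums do not check it. LECs held the BEC transcripts *Flt1*, *Emcn* and *Podxl* at 26.2–33.7% of their BEC level. Among the 4 LEC classes the valve, collecting and *Ptx3* capillary lists had their highest group means in their own class, but BECs held the collecting and *Ptx3* capillary lists at a mean near or above that. The markers used to set the classes are not read as results, and a class set by a limit on 1 gene is a range of cells rather than a cell type.

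*Ptx3*-high LECs held all 9 genes above both controls in every mutant, where 20.2% of all genes did so, and the other LECs 8 of them, all but *Gprc5a*, where 10.6% did. These counts follow from the choice of the genes and from few *Ptx3*-high control cells, and nothing is read from them. In these cells *Lrrc26* was at 71.5, 73.2, 73.6, 74.0 and 82.4 CPM in mutants 1–5, and at 0 reads in both controls. In the other LECs of the same mice it was at 18.3, 9.86, 19.8, 4.11 and 32.9 CPM, lower in 5 of 5 mice, and also at 0 reads in both controls. The *Ptx3*-high level of *Lrrc26* was nearly the same from mouse to mouse, whereas the other LECs varied.

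*Ccdc184* was at 159, 140, 112, 138 and 143 CPM in *Ptx3*-high LECs and at 36.6, 64.7, 61.4, 56.1 and 99.7 CPM in other LECs, higher in *Ptx3*-high cells in 5 of 5 mice. *Klk8* was at 161, 207, 188, 140 and 425 CPM in *Ptx3*-high and at 27.4, 41.7, 126, 129 and 314 CPM in other LECs, again higher in 5 of 5. Positive cells followed the same order, with *Ccdc184* in 37.5–51.5% of *Ptx3*-high and 15.3–34.8% of other LECs. For these 3 genes the *Ptx3*-high class was the higher in each mouse.

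The other genes were less uniform. *Myo18b* was higher in *Ptx3*-high than in other LECs in 4 of 5 mice (4.72, 12.6, 10.9, 12.8 and 27.2 CPM against 1.97, 7.72, 3.37, 13.8 and 12.7 CPM). *Kcnn4* was higher in 4 of 5 (33.6, 24.9, 36.9, 24.6 and 29.0 CPM against 15.6, 22, 20.2, 17.8 and 46.1 CPM) and *Gprc5a* in 4 of 5. *Stx11* and *Ankrd33b* were higher in 3 of 5. *Serpinb1a* went the other way in 4 of 5 mice, at 0.311, 2.83, 3.96, 1.88 and 3.58 CPM in *Ptx3*-high and 22.8, 2.79, 8.79, 4.66 and 12.1 CPM in other LECs.

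In the test across all genes, edgeR's quasi-likelihood test with mouse as a block and Benjamini-Hochberg adjustment, 0 of the 9 genes differed between *Ptx3*-high and other LECs, against 1.07% of the 16754 genes tested. At an unadjusted p under 0.05 there were 2, *Lrrc26* and *Klk8*, and DESeq2 called 0. *Lrrc26* differed by 2.11 ± 0.85 on the log2 scale (SE, adjusted p = 0.501), *Klk8* by 1.34 ± 0.56 (0.543) and *Ccdc184* by 1.10 ± 0.65 (0.923), and *Serpinb1a* by -1.51 ± 0.93 (0.951). The median difference of the 9 genes was 1.10, that of all genes -0.01. The direction in each mouse is therefore given as a description for this class.

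Another way to see which cells carried a gene is to divide its reads among the classes. *Ptx3*-high LECs held 38.0% of all mutant LEC reads, as the mean of 5 mice, but 65.7% of the reads of *Lrrc26*, 65.9% of *Ccdc184*, 66.7% of *Klk8*, 64.4% of *Ankrd33b* and 63.9% of *Myo18b*. For these 5 genes the share exceeded the class's share of all reads in 5 of 5 mice. It did so in 4 of 5 for *Gprc5a* (56.0%), *Stx11* (54.5%) and *Kcnn4* (50.6%). *Serpinb1a* had 26.3% of its reads in *Ptx3*-high and 72.8% in other LECs, which held 38.5% of all reads, and the other LECs exceeded their share in 5 of 5 mice. Collecting LECs held 8.30% of all reads and 0.109–5.77% of the reads of the 9 genes.

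**Figure D2:**
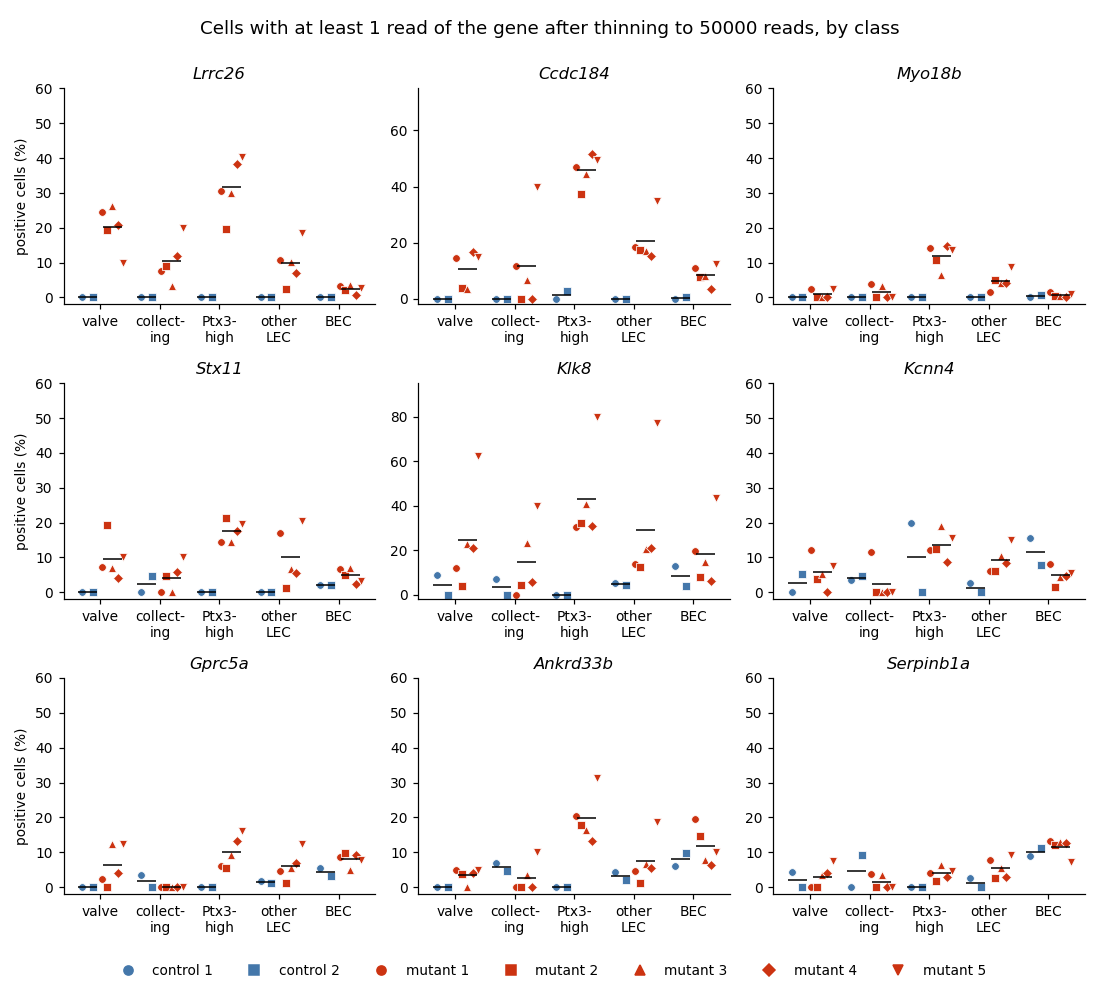
Percentage of cells with at least 1 read of each gene after thinning to 50000 reads, in valve, collecting, *Ptx3*-high and other LECs and in BECs, with 1 point per mouse (control mice blue, mutants red) and a line at the group mean. *Ccdc184* is positive in 37.5–51.5% of *Ptx3*-high LECs of the mutants and in at most 2.63% of those of the controls.

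The limit on *Ptx3* was replaced by bands of increasing *Ptx3* among mutant LECs outside the valve and collecting classes, with 0, above 0 to 50, 50 to 200, 200 to 1000 and at least 1000 CPM of *Ptx3*. The band at 0 rests on 4 mice, since mutant 1 had too few such cells, and the others on 5. *Lrrc26* averaged 4.00, 20.1, 44.2, 68.1 and 108 CPM in these bands. Over the 4 mice with every band it averaged 4.00, 20.4, 44.9, 65.5 and 116 CPM, a step up of the mean at each band. The mice varied, with an SD of 35.4 CPM over these 4 in the band of 50 to 200 CPM. The lowest of the 5 mice had 0 CPM in that band, while each had at least 7.35 CPM in the band below. *Ccdc184* averaged 18.4, 79.5, 116, 130 and 153 CPM, but over the same 4 mice 18.4, 90.9, 82.4, 123 and 166 CPM, with no step up from the second to the third. *Klk8* averaged 59.9, 125, 299, 197 and 224 CPM and was thus highest in the middle band, where the SDs over mice were wide.

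*Stx11* (4.67, 14.6, 51.4, 28.2 and 23.4 CPM) and *Kcnn4* (10.7, 26.5, 54.8, 25.7 and 23.8 CPM) were also highest in the middle band. That band held 98 cells of 5 mice, fewer than the others. *Serpinb1a* averaged 6.88, 10.1, 5.04, 3.75 and 0.262 CPM and was lowest where *Ptx3* was highest, as over the same 4 mice, where it averaged 0.213 CPM in that band and 4.66–6.88 CPM in the others. The share of *Serpinb1a*-positive cells did not follow this order, at 9.96, 4.80, 2.01, 4.47 and 4.85% in the bands. Its CPM rested on few cells, since 13 of 543 other LECs and 5 of 437 *Ptx3*-high LECs reached 100 CPM. The bands come from the same libraries and were compared without a test.

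**Figure D3:**
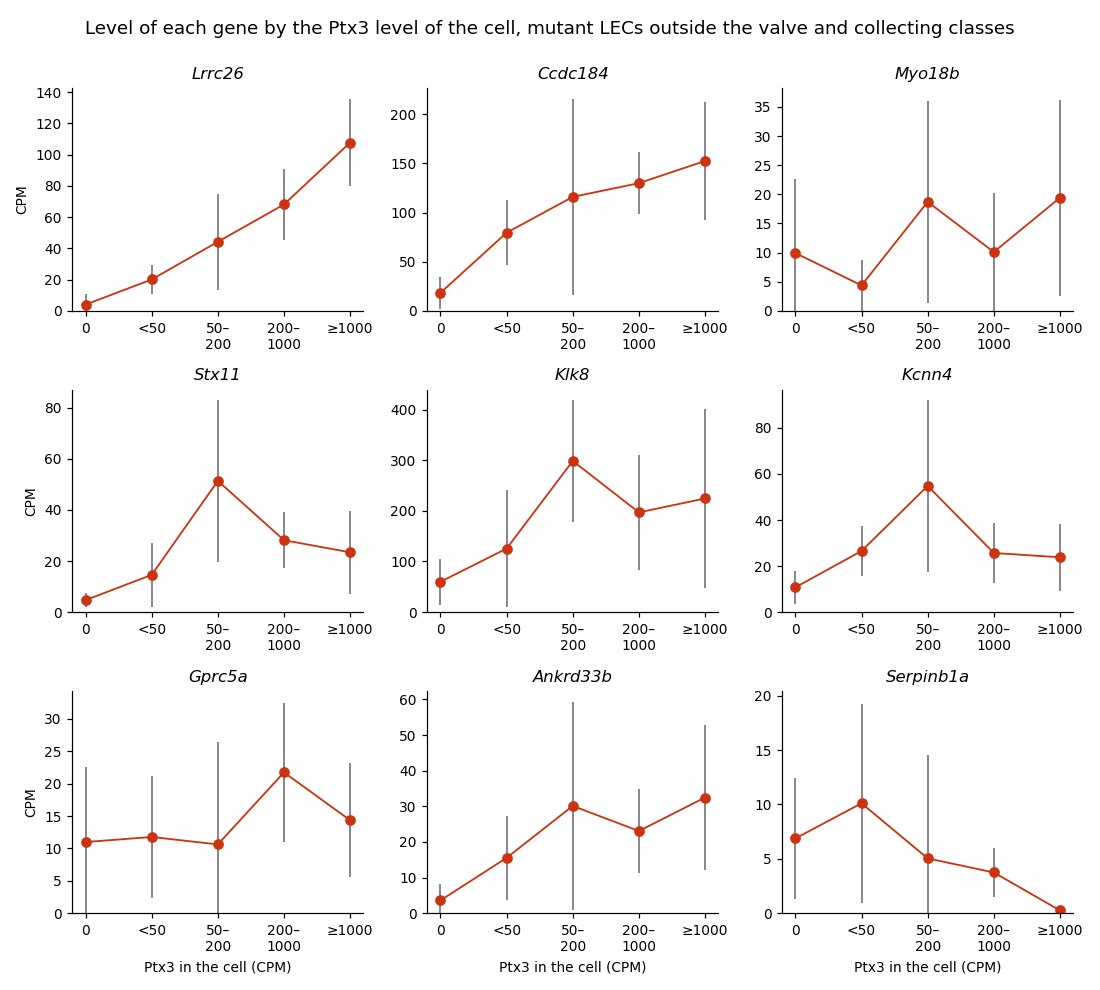
Mean CPM of each gene in bands of *Ptx3* level (CPM) over mutant LECs outside the valve and collecting classes, with bars for the SD over 5 mice, or 4 mice in the band at 0. *Lrrc26* goes from 4.00 CPM at no *Ptx3* to 108 CPM at 1000 CPM of *Ptx3* or more, and *Serpinb1a*, whose mean rests on few cells, from 6.88 to 0.262 CPM.

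Since *Ptx3*-high LECs were also more frequent in mutants, the mutant levels were recomputed with each mouse's class levels weighted by the control mix of classes. This kept 65.7% of the difference from controls for *Lrrc26*, 75.6% for *Ccdc184*, 78.3% for *Myo18b*, 79.6% for *Klk8* and 81.0% for *Stx11*. *Ankrd33b*, *Gprc5a* and *Kcnn4* kept 82.2, 82.5 and 88.1%. *Serpinb1a*, with 72.8% of its mutant LEC reads in the other LECs, came to 137% of its difference. Control LECs are near 0 for most of these genes in each class, which bounds how much the weighting can remove, and the part of class composition in the differences was not tested.

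Collecting LECs of the mutants were low in most of the genes. *Ccdc184* was at 1.98, 0.480, 0.242, 0 and 3.20 CPM in collecting LECs of mutants 1–5, below the other LECs in 5 of 5 mice. *Klk8* was at 2.35, 1.12, 5.56, 1.89 and 18.4 CPM, also lower in 5 of 5, with mutant 5 the highest. *Kcnn4* was at 1.11, 0.160, 0.121, 0.630 and 0.984 CPM, where control 1 had 23.8 CPM from its single cell. *Myo18b*, *Serpinb1a* and *Gprc5a* stayed at or below 0.484 CPM in each mutant. Cells at 100 CPM of these 3 genes were also rare among the other LECs, 10, 13 and 22 of 543, against 0 of 105 collecting LECs. Whether so few collecting cells could miss such rare cells by sampling was not tested.

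Against the other LECs of the same mice, 6 of the 9 genes were lower in collecting LECs (edgeR quasi-likelihood test, Benjamini-Hochberg adjusted), against 0.889% of all genes lower. The 9 genes had been chosen for a high level over all mutant LECs, of which collecting LECs are a small part. *Ccdc184* fell by 5.94 ± 0.84 on the log2 scale (SE, adjusted p = 0.00290) and remained called in 16 of 16 alternatives. *Klk8* differed by -4.59 ± 0.64 (0.00286) and lost its call only without cells bearing BEC transcripts (adjusted p = 0.109). For these 2 genes the call held whichever mouse was left out.

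The calls of the other 4 were lost when some mice were left out, with differences of like size, and all 4 were lost without cycling cells. *Kcnn4* (-5.55 ± 1.04, adjusted p = 0.0148) lost its call without mutant 3 or 5 or without cycling cells, with an adjusted p of up to 0.0864, while the difference stayed between -6.01 and -4.93. *Serpinb1a* (-6.44 ± 1.16, 0.0120) was called in 10 of 16 alternatives and lost without mutant 3, 4 or 5, up to 0.0820, at -7.40 to -6.16 without 1 mouse. *Myo18b* (-6.11 ± 1.19, 0.0178) lost it without mutant 2, 3, 4 or 5, up to 0.101, and *Gprc5a* (-5.33 ± 1.09, 0.0238) without mutant 1, 3, 4 or 5, up to 0.145. Their differences without 1 mouse stayed at -6.63 to -5.47 and -5.69 to -5.05. Stricter class limits also removed the calls of *Serpinb1a*, *Myo18b* and *Gprc5a*, and thinning those of *Serpinb1a* and *Myo18b*. *Gprc5a* was also lost with first plates only and without cells bearing BEC transcripts. *Myo18b* was called in 9 of 16 alternatives and *Gprc5a* in 8 of 16. Over all alternatives *Gprc5a* reached an adjusted p of 0.492, at -7.57 to -3.66. *Ankrd33b* (-3.55 ± 0.96, 0.0841) did not pass the test. Collecting sums rested on 10–30 cells per mouse.

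*Lrrc26* and *Stx11* did not follow this pattern in collecting LECs. *Lrrc26* was at 43.3, 33.0, 0.484, 31.3 and 1.97 CPM there, against 0 reads in both controls. Its difference from other LECs was 0.26 ± 0.92 (edgeR adjusted p = 0.940). *Stx11* was at 0.370, 23.2, 0.242, 9.45 and 20.7 CPM with -1.09 (edgeR adjusted p = 0.727). Its control mean was 3.69 CPM, from the 54 reads of 1 cell of control 2, and mutants and controls overlapped. A single cell held 96.9, 99.5 and 87.2% of the *Lrrc26* reads in mutants 1, 2 and 4. For *Stx11* it held 99.3, 95.6 and 96.4% in mutants 2, 4 and 5. Where either gene was above near 0 in collecting LECs, its level thus rested on few cells, and only 4 cells reached 100 CPM of *Lrrc26*.

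Valve LECs of the mutants also carried *Lrrc26*. It was at 49.4, 35.9, 48.6, 31.6 and 9.81 CPM in mutants 1–5 and at 0 reads in both controls, and was positive in 24.4, 19.2, 26.3, 20.8 and 10.0% of valve LECs. In 4 of 5 mice this was above the other LECs, with a difference of 0.99 on the log2 scale (edgeR adjusted p = 0.940), and in 5 of 5 below the *Ptx3*-high LECs. A single valve cell held 90.5% of the *Lrrc26* reads in mutant 5 and 21.7–47.7% in the other mutants. *Stx11* was at 4.21, 65.5, 21.2, 6.80 and 22.9 CPM in mutant valve LECs and at 0.144 and 0 CPM in controls, without overlap. A single cell held 71.0 and 97.6% of the *Stx11* reads in mutants 1 and 4, and 26.5–50.9% in the other mutants.

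Of the 9 genes, only *Lrrc26*, *Stx11* and *Ccdc184* were above both controls in the valve LECs of every mutant, 3 of 9 where 9.96% of all genes were. The genes were chosen on mutant against control LECs, and the controls held 42 valve cells, so nothing is read from this count. *Ccdc184* was at 23.5, 0.832, 13.7, 15.1 and 9.51 CPM, where the value of mutant 2 came from 6 reads in 6 cells. A single cell held 51.0, 94.2, 79.6 and 73.6% of its reads in mutants 1, 3, 4 and 5. *Gprc5a* was at 7.46, 29.4, 12.8 and 31.6 CPM in mutants 1, 3, 4 and 5. In mutant 2 it was at 0.139 CPM, below the 0.144 and 0.339 CPM of the controls. A single cell held 93.6 and 96.2% of its reads in mutants 1 and 4, and 29.9 and 38.8% in mutants 3 and 5. The levels of both genes thus rested on few valve cells. *Myo18b*, *Ankrd33b* and *Serpinb1a* were below 1 CPM in the valve LECs of each mutant, and no valve cell of 188 reached 100 CPM of any of these 3.

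Against other LECs, 2 of the 9 genes were lower in valve LECs by edgeR's quasi-likelihood test, against 0.209% of all genes lower. *Klk8* was at 2.51, 0.693, 15.1, 5.02 and 86.2 CPM and differed by -3.42 ± 0.60 (adjusted p = 0.0207), a call made in 9 of 16 alternatives and lost without mutant 1, 3 or 4 (up to 0.128). It was also lost without cells with keratinocyte RNA, without cells bearing BEC transcripts and without cycling cells. Over all alternatives its adjusted p reached 0.625, at -4.85 to -2.26. *Serpinb1a* differed by -5.16 ± 1.06 (0.0465), called in 4 of 16 alternatives and lost whichever of the 5 mice was left out (up to 0.181). *Ankrd33b* (-4.62, adjusted p = 0.0624) and *Myo18b* (-5.02, 0.0635) were below the other LECs in 5 of 5 mice but did not pass.

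**Figure D4:**
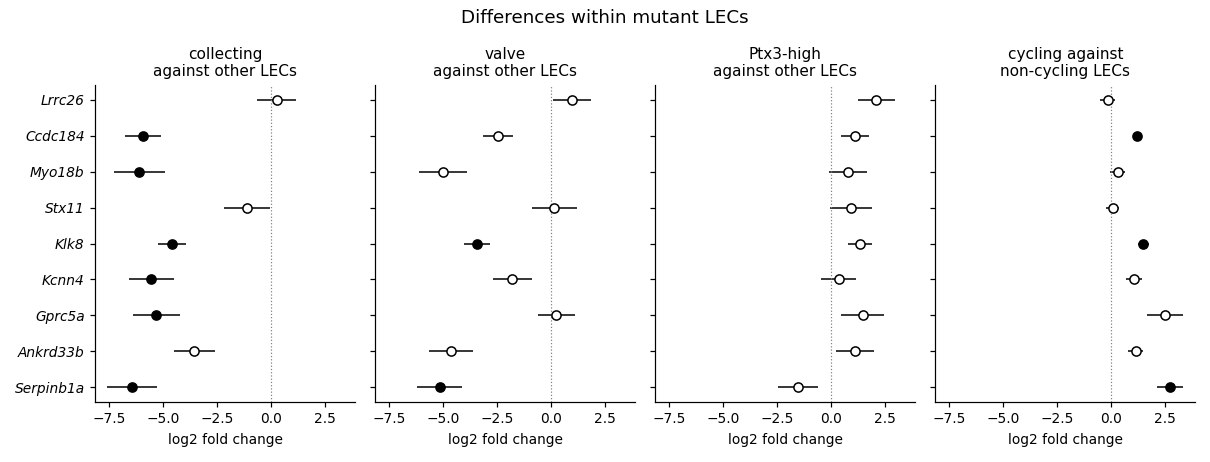
Log2 fold change of each gene within mutant mice (collecting, valve and *Ptx3*-high against other LECs, and cycling against non-cycling LECs), with SE bars and filled points where the edgeR adjusted p is under 0.05. Of the 9 genes, 6 are filled in the collecting contrast, 2 in the valve, 3 in the cycling and 0 in the *Ptx3*-high contrast.

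Cycling cells made up 20.5 ± 8.89% of mutant LECs (257 cells) and 1.13 and 1.73% of control LECs, by at least 3 of 7 cell-cycle genes. *Ccdc184* averaged 150 CPM in cycling and 62.1 CPM in non-cycling LECs of the mutants, higher in 5 of 5 mice. The same held for *Klk8* (290 and 106 CPM) and *Serpinb1a* (14.7 and 2.46 CPM). By edgeR's quasi-likelihood test 3 of the 9 genes were higher in cycling LECs, against 2.52% of all genes higher, and these were the 3. *Ccdc184* differed by 1.21 ± 0.17 (adjusted p = 0.0115), lost without mutant 3 (0.0564) or when 2 cell-cycle genes sufficed, and called in the other 14 of 16 alternatives. *Klk8* differed by 1.52 ± 0.24 (0.0174), called in 10 of 16 alternatives and lost without mutant 2, 3 or 4 (up to 0.0725). It was also lost without cells bearing BEC transcripts, and over all alternatives its adjusted p reached 0.189.

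*Serpinb1a* differed by 2.75 ± 0.60 (edgeR adjusted p = 0.0496), called in 5 of 16 alternatives and lost without mutant 2, 3, 4 or 5 (up to 0.145). Cycling cells, with 22% of all LEC reads, held 64.0% of its reads and 59.0% of those of *Gprc5a*, whose difference of 2.52 ± 0.85 did not pass (adjusted p = 0.154). *Lrrc26* (-0.15) and *Stx11* (0.09) did not pass either. Of the non-cycling mutant LECs, 54.9% were positive for at least 1 of the 9 genes, against 76.1% of the cycling ones.

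Some mutant LECs held several of the genes. Whether the genes met in a cell more often than their single shares alone would give was not tested. At equal depth 58.3 ± 19.0% of mutant LECs (SD, n = 5, from 44.6 to 91.8%, the latter in mutant 5) were positive for at least 1 gene and 19.4 ± 11.7% for 3 or more, against 7.51 and 14.7% for at least 1 and 0 cells for 3 or more in the controls. Among *Ptx3*-high LECs of the mutants 80.3 ± 9.12% held at least 1 and 34.3 ± 12.8% at least 3. Other LECs (48.6 ± 25 and 14.7 ± 10.7%) and valve LECs (54.5 ± 14.7 and 7.19 ± 5.67%) had fewer with 3 or more, and no collecting LEC had 3. Within mice the rank correlation of the genes over mutant LECs, which share depth and library, had a median of at most 0.304, for *Ccdc184* with *Klk8*.

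**Figure D5:**
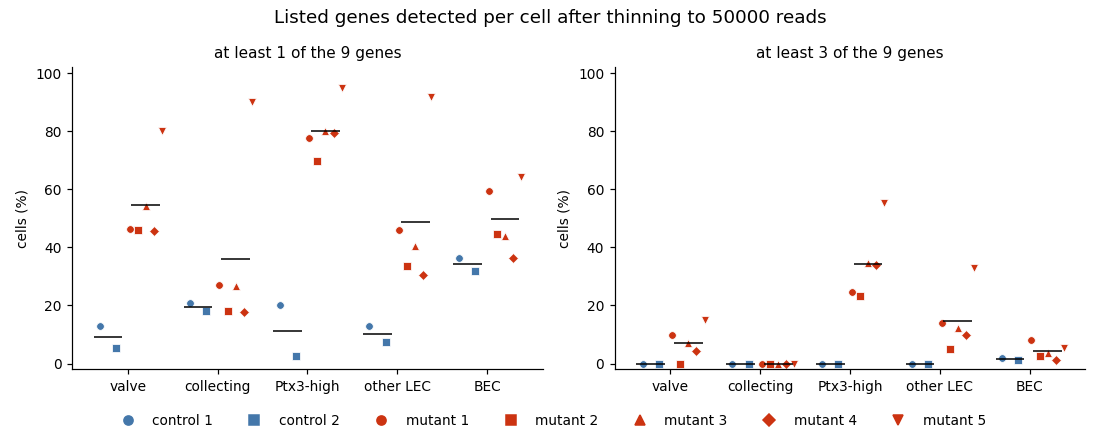
Percentage of cells positive for at least 1 (left) and at least 3 (right) of the 9 genes after thinning to 50000 reads, by class, with 1 point per mouse (control mice blue, mutants red) and a line at the group mean. At least 3 genes are found in 34.3% of *Ptx3*-high LECs of the mutants as the mean of 5 mice and in 0 control LECs.

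BECs of the same mice asked whether the genes also differed where Cre acts but the genes were not chosen. *Ccdc184* was at 0 and 0.753 CPM in the BECs of the controls and at 31.1, 8.31, 12.8, 8.64 and 19.6 CPM in those of mutants 1–5, below the LECs of the same mouse in 5 of 5. *Lrrc26* was at 0 reads in controls and at 2.74, 1.2, 2.42, 0.128 and 0.563 CPM in mutants, at least 37.1-fold higher. For these 2 genes of the 9 every mutant lay above both controls in BECs, against 15.3% of the 15502 genes at 1 CPM in 2 or more mice.

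By edgeR's quasi-likelihood test 0 of the 9 genes differed between mutant and control BECs, against 2.43% of 18878 genes, with 4 at an unadjusted p under 0.05 and 4 called by DESeq2. *Ccdc184* differed by 5.44 ± 1.37 on the log2 scale (adjusted p = 0.0787) and was called in 3 of 19 alternatives, including the fit without control 2 (0.0331), where control 1 stands alone and the mutants give all of the spread. *Lrrc26* had an adjusted p of 0.0770 and was called by DESeq2 alone. LEC transcripts *Prox1*, *Flt4* and *Mmrn1* summed in BECs to 1.82–5.29% of their LEC level, and whether LEC RNA accounts for the low *Lrrc26* reads was not tested.

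Of the remaining genes, 5 were at 17.6 CPM or more in the BECs of both controls. *Kcnn4* was at 52.5 and 28.1 CPM in the BECs of the controls and at 19.0, 5.19, 16.9, 20.4 and 19.1 CPM in those of the mutants, so that every mutant lay below both controls, the opposite of LECs. Its difference in BECs was -1.32 ± 0.48 (edgeR adjusted p = 0.171), which does not pass. In each mouse 5 BECs held 74.0–99.1% of the *Kcnn4* reads. Cells at 100 CPM of *Kcnn4* made up 5.41 and 5.23% of control BECs, 8 cells in each control, and 1.63–3.83% of mutant BECs. *Klk8* was at 35.8 and 23.4 CPM in control and 18.5, 17.3, 24.3, 20.7 and 46.4 CPM in mutant BECs, overlapping (-0.22 ± 0.42, adjusted p = 0.800).

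*Serpinb1a* was at 28.1 and 34.9 CPM in control BECs and at 19.4, 31.5, 40.6, 39.6 and 23.8 CPM in mutant BECs, above the LECs of the same mutant in 5 of 5 mice. *Gprc5a* (24.1 and 17.6 against 12.6–40.2 CPM) and *Ankrd33b* (26.1 and 39.0 against 15.3–43.4 CPM) also overlapped between genotypes. *Stx11* was at 4.31 and 1.30 CPM in controls, where 172 of 174 and 47 of 50 reads came from 1 cell each, and 3.70–12.2 CPM in mutants (1.70 ± 0.69, edgeR adjusted p = 0.211). *Myo18b* was at 0 and 0.234 CPM in control BECs, the latter 9 reads of 1 cell, and reached 22.8 CPM in mutant 1 and at most 2.91 CPM in the other mutants. A single cell held 872 of the 882 *Myo18b* reads in the BECs of mutant 1, and 274 of 289 in mutant 5. Thus *Klk8*, *Kcnn4*, *Gprc5a*, *Ankrd33b* and *Serpinb1a*, at or below 4.25 CPM in control LECs, were at 17.6–52.5 CPM in control BECs. These control BEC levels rested on few cells. In each control 5 BECs held 59.1–99.7% of the reads of each of these genes, with the highest shares for *Gprc5a* (97.2 and 99.7%).

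RNA of other cells was measured beside these values. Cells with BEC transcripts at 30% or more of their LEC transcripts made up 14.1% of mutant and 16.3% of control LECs. The keratinocyte markers summed to 264 and 91.3 CPM in control LECs and to 50.1–99.2 CPM in mutant LECs. In BECs they summed to 405 and 137 CPM in the controls and to 85.7, 20.1, 129, 126 and 115 CPM in mutants 1–5. Their part in the BEC levels given above, including those of *Kcnn4*, was not tested. The median keratinocyte level of *Serpinb1a*-positive LECs was 23.9, 118, 38.3, 27.6 and 2.03 CPM in mutants 1–5, and that of negative LECs 23.9, 0, 5.84, 21.9 and 2.51 CPM. It was thus clearly higher in mutants 2 and 3, from 3 and 19 positive cells, and close in the others, and the part of keratinocyte RNA in its level was not tested. With the cells set aside for contaminant markers kept, the edgeR log2 difference of *Serpinb1a* between mutant and control LECs, which chose it, was 0.56 in place of 3.95. Doublets were not called.

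Few of the 62 listed relatives and partners of the genes passed the test. In LECs 3 of 46 tested differed between mutants and controls by edgeR's quasi-likelihood test, against 3.10% of all 19424 genes. *Myo18a*, the relative of *Myo18b*, rose by 1.44 ± 0.25 on the log2 scale (adjusted p = 0.0272, called in 11 of 19 alternatives), and *L1cam*, a neural adhesion protein cleaved by the protease of *Klk8*, by 2.06 ± 0.41 (0.0394, 10 of 19). *Spink5*, an inhibitor of epidermal kallikreins, fell by 6.78 ± 1.38 (0.0423) and was called in 5 of 17 alternatives. Since it is an epidermal transcript, the keratinocyte markers, 264 and 91.3 CPM in control and 50.1–99.2 CPM in mutant LECs, stand beside it, and their part was not tested. In BECs edgeR called 0 of 43, with 11 at an unadjusted p under 0.05 and 7 by DESeq2, and between *Ptx3*-high and other LECs 0 of 41, with 7 and 2.

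Within mutant LECs, relatives of *Kcnn4*, *Serpinb1a* and *Myo18b* were among the genes lower in collecting cells. *Kcnn1*, a channel related to *Kcnn4*, fell by 6.73 ± 1.36 against other LECs (edgeR adjusted p = 0.0217, called in 9 of 15 alternatives) and by 7.89 ± 1.33 in valve LECs (0.0160, 8 of 15). *Serpinb9b* (-5.46 ± 1.05, 0.0169, called in 9 of 16) and *Myo18a* (-2.46 ± 0.59, 0.0485, 3 of 16) made 3 of 41 lower in collecting LECs, where 0.889% of all genes were. *Serpinb6a* (-0.76 ± 0.16, 0.0482, 5 of 16) made 2 of 41 in valve LECs, where 0.209% were. In cycling LECs the calmodulin genes *Calm3* (0.69 ± 0.10, 0.0120, called in 12 of 16) and *Calm2* (0.27 ± 0.06, 0.0408, 4 of 16) and the non-muscle myosin *Myh10* (1.16 ± 0.22, 0.0311, 9 of 16) were higher, 3 of 48 where 2.52% of all genes were.

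The genes most alike in pattern were found over the 25 sums of the 4 LEC classes and BECs of the 5 mutants, among 9078 candidates. *Lrrc26* was closest to *E2f2* (Pearson r = 0.883) and *Lefty1* (0.881), and *Ccdc184* to *Rps6ka3* (0.887) and *Adam12* (0.872). *Klk8* was closest to *Crmp1* (0.916) and *Peg3* (0.862), and *Serpinb1a* to *Tcim* (0.835) and *Col4a1* (0.832). *Kcnn4* was closest to *Ccdc184*, another of the 9 genes (0.868). The sums share mice and depth, and r is a description.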

How the data were processed

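Raw read counts per gene and cell were used as deposited for 9 plates of 7 mice. The authors aligned reads with TopHat2 2.1.1 to GRCm38 with the chicken PIK3CA sequence, removed duplicates with SAMtools 0.1.18 and counted reads per gene with featureCounts. The annotation used for counting is not given in the sources used here, and symbols came from GENCODE M21 (46005 of 46517 genes). Control 3 was not analysed here. The 92 spike-ins stayed out of totals. Mice are separate animals, and cells were not treated as replicates.

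The filter on wells asked for 200 genes, 50000 reads and no more than 10% of reads from mitochondria. A cell was a LEC where the CPM of Prox1, Flt4 and Mmrn1 exceeded those of Flt1, Emcn and Podxl, and otherwise a BEC. Cells in which a list of contaminant markers exceeded Pecam1, Cdh5, Cldn5 and Egfl7 were set aside (79 mutant, 72 control), and 2 of the rest had no resolved type. No 2 cells held identical counts, and no doublet caller was run. Plates held 99738886–151102969 reads. Floors cover counting error only.

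Reads were summed per mouse, or per mouse and class with at least 5 cells, and fitted in R 4.3.3 with edgeR 4.0.16 (quasi-likelihood F test, TMM, filterByExpr, Benjamini-Hochberg over all genes, called under 0.05), with DESeq2 1.42.0 as an alternative. Class contrasts within mutant mice had mouse as a block because their sums come from the same animals. Replicate numbers of mutants and controls name different animals (correlation of deviations -0.03 to 0.08) and pair nothing. Descriptions used Python 3.11.15, numpy 2.4.6, pandas 2.3.3 and scipy 1.17.1, and figures matplotlib 3.10.9. The genes and the list of 62 relatives, of which those passing the test are named, were chosen with earlier results of these data known. So were the tests. Most alike genes are the 2 with the highest Pearson r per gene.

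Tested on simulated data, the BEC comparison recovered 60.0% of 4-fold and 93.0% of 16-fold changes over 18227 genes, the collecting comparison 37.0 and 81.0% over 16425, and the cycling comparison 77.0 and 98.0% over 18137.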

Additional observations from a re-analysis of the deposited data

Results flagged for a closer look

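Of 72 groups of 5 mutant mice examined, 14 had 1 mouse far from the other 4, where chance gives about 1 in 20. Mutant 5, the mutant of the controls' plate series, accounted for 11 of these values. Of these, 5 concerned the level of *Klk8*, which in mutant 5 was 336 CPM in all LECs (59.3–118 in the others), 425 CPM in *Ptx3*-high LECs (140–207), 86.2 CPM in valve LECs (0.693–15.1), 18.4 CPM in collecting LECs (1.12–5.56) and 46.4 CPM in BECs (17.3–24.3). Its share of *Klk8*-positive LECs was 75.6% (16–27.3%). *Kcnn4* stood at 34.8 CPM in all LECs and 46.1 CPM in other LECs of mutant 5, and *Lrrc26* at 82.4 CPM in its *Ptx3*-high LECs (71.5–74.0). *Ankrd33b* was positive in 22.2% of the LECs of mutant 5 (6.52–8.29% in the others), and *Serpinb1a* in 7.21% of its BECs (12–13.1%).

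The other 3 values lay in BECs. Mutant 1 had 22.8 CPM of *Myo18b* (0.0638–2.91 in the others) and 43.4 CPM of *Ankrd33b* (15.3–22.8), and mutant 2 had 5.19 CPM of *Kcnn4* (16.9–20.4). Of the 882 *Myo18b* reads of mutant 1, 872 came from 1 cell.

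*Kcnn4* stood apart between the endothelial types. All 5 mutants lay above both controls in LECs and below both in BECs, where the log2 fold change was -1.32 ± 0.48 and did not pass the test (edgeR adjusted p = 0.171). The LEC direction was part of the choice of the gene. The BEC levels rested on few cells, with 74.0–99.1% of the reads in 5 cells of each mouse. The difference between LECs and BECs was not tested.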

How the results depend on the processing

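Counts of genes called by edgeR moved by over 1.5 times under some alternatives. The main LEC comparison called 603 genes, DESeq2 2515, the fit with plate series as a block 186, without cycling cells 76, and without 1 mouse 191–598. In BECs 458 became 2474 (DESeq2), 64 (plate series), 251 (equal cell numbers) and 156–707 (without 1 mouse). A replicate block, whose numbers pair no animals, left 16 genes in LECs and 88 in BECs. Collecting against other LECs gave 236, then 1334 (DESeq2), 151 (first plates only), 124 (without cycling cells) and 48–215 (without 1 mouse). *Ptx3*-high against other LECs gave 180, then 449 (DESeq2), 68 (stricter class limits) and 90–178. Valve against other LECs gave 64, then 471 (DESeq2), 15 (first plates), 40 (without keratinocyte RNA), 26 (without cells of both lineages), 28 (without cycling cells), 504 (stricter limits) and 17–28 (without 1 mouse). With no replicate block it gave 28. Cycling against non-cycling gave 792, then 2945 (DESeq2), 443 (without cells of both lineages), 299 and 1485 (at least 2 or 4 cell-cycle genes) and 271–658. The cause of these changes was not tested.

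Reversals of direction all concerned differences that did not pass the test. In BECs, *Myo18b* went to -0.29 without cells of both lineages. *Gprc5a* went to -0.0699 with the replicate block, -0.17 with plate series, -0.0863 without cycling cells, -0.10 without keratinocyte RNA, -0.0600 without cells of both lineages and -0.22 to 0.41 without 1 mouse. *Klk8* went to 0.62 with plate series, 0.00870 without keratinocyte RNA and -0.54 to 0.18 without 1 mouse, *Serpinb1a* to 0.0517 without a filter, 0.11 with contaminated cells and -0.13 to 0.15 without 1 mouse, and *Ankrd33b* to 0.11 without keratinocyte RNA. *Lrrc26* in collecting LECs went to -0.248 without cells of both lineages, -0.43 without cycling cells, -0.18 under stricter limits and -0.40 to 1.14 without 1 mouse. *Kcnn4* in *Ptx3*-high LECs went to -0.0870 under stricter limits. In valve LECs *Gprc5a* went to -0.317 (first plates), -1.11 (stricter) and -0.14 to 0.62, and *Stx11* to -0.11 (stricter) and -0.53 to 1.14. In cycling LECs *Lrrc26* went to 0.0252 with no replicate block, 0.0759 after thinning, 0.0884 without cells of both lineages and -0.29 to 0.26 without 1 mouse, and *Stx11* to -0.15 without cells of both lineages, -0.12 outside the valve and collecting classes and -0.0715 to 0.32. In LECs the fold change of *Serpinb1a* was 0.56 with contaminated cells kept, against 3.95. Leaving out cells of both lineages, cycling cells outside the valve and collecting classes, and the limit of 100 CPM for a positive cell were chosen after seeing the data. Of 90 positive-cell shares 73 moved by over 1 SD without thinning and 9 with a limit of 2 reads. At 100 CPM, 25 of 54 did.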
